A study of Homo sapiens with 33 samples.

Results

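Karpas422 is an established human cell line of diffuse large B-cell lymphoma that carries a mutant EZH2, the methyltransferase of Polycomb repressive complex 2 (PRC2). EED226 is an allosteric inhibitor of PRC2 that binds its subunit EED. The transcripts followed here are those of 52 named genes of mitotic entry, the spindle and the kinetochore. They are listed by name with no cut on a measured value, but earlier results of these data were known when they were chosen. Each was read from its brightest probe set, the one with the highest mean over all 33 arrays. All 52 were found among the 19775 genes that have a probe set with a single symbol. Cells kept in EED226 (5 µM) for 8, 24, 48 or 72 h or for 6 days were compared with cells kept for the same time in DMSO, the vehicle, and DMSO cells were compared with cells at 0 h, for which the labels name no agent. The titles name EED226 on these arrays, while the series' design text speaks of an EZH2 inhibitor and the treatment protocol names EI1. Each of the 11 groups holds 3 arrays, which the design text calls biological triplicates; every group is of this 1 line, so all carry the same EZH2 mutation. Values are log2 units of normalised array signal.

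Mitosis starts when CDK1 bound to a B-type cyclin is switched on by CDC25 phosphatases, with Polo-like and Aurora kinases acting alongside. Condensins and topoisomerase II compact the chromosomes, kinetochores tie them to spindle microtubules, and the spindle checkpoint holds back CDC20 and the anaphase-promoting complex until every kinetochore is attached. Transcripts of these genes accumulate together late in the cell cycle. The MuvB complex with MYBL2 and FOXM1 is known to drive many of them through a promoter element called the CHR, next to CCAAT boxes bound by NF-Y, and the related DREAM complex represses them in resting cells.

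The B-cell markers MS4A1, PAX5 and CD79B were bright in every group. Group means of MS4A1 ran from 12.2 to 13.1, of PAX5 from 11.3 to 11.7 and of CD79B from 10.3 to 11.4. The B-cell markers CD79A (8.15 to 8.45) and CD22 (7.88 to 9.005) were dimmer and lay below the T-cell marker CD3G. Of the T-cell markers, CD2 and CD8A stayed between 2.79 and 3.44, while CD3D (8.09 to 9.04) and CD3G (9.80 to 10.6) were brighter. Among myeloid and fibroblast markers, CD14 stayed between 2.88 and 3.22, LYZ ran from 3.101 to 5.50, and DCN from 12.5 to 13.3. Arrays of 1 group correlated at 0.994 or above over all genes, except for DMSO at 6 days, whose replicate 3 gave 0.986 and had the lowest 75th percentile of all arrays (6.10).

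The promoters of the mitotic genes share sequence elements that the choice of genes did not use. RefSeq promoter windows (GRCh38.p14, 250 bases before to 50 bases after the annotated start) were at hand for 44 of the 52 genes. The 130 bases before the start are printed for 6 of them, in the orientation of the gene, to show how the elements lie in windows that hold them, beside 1 window that holds neither. Capitals mark matches to the CHR letters TTTGAA, which read TTCAAA where the match lies on the other strand, and to the box letters CCAAT, which then read ATTGG. CDC20 (chr1:43358851-43358980, plus strand), PLK1 (chr16:23678759-23678888, plus strand), CCNB2 (chr15:59105016-59105145, plus strand) and DLGAP5 (chr14:55191586-55191715, minus strand) act in entry, spindle assembly and anaphase, and each fell by over 1 log2 unit. CKS2 (chr9:89311065-89311194, plus strand) fell least of the genes that fell, and CKAP2 (chr13:52455858-52455987, plus strand) is the gene whose brightest probe set did not fall.
CDC20: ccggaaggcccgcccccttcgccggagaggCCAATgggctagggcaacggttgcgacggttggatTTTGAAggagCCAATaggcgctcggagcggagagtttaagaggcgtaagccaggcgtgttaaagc
PLK1: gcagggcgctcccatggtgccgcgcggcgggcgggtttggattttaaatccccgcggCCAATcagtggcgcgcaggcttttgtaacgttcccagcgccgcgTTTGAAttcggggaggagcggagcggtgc
CCNB2: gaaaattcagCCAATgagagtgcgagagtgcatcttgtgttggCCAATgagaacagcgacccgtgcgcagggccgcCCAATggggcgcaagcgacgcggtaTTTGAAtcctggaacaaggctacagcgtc
DLGAP5: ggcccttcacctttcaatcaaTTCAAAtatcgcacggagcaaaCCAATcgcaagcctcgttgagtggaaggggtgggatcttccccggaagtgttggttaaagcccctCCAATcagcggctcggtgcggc
CKS2: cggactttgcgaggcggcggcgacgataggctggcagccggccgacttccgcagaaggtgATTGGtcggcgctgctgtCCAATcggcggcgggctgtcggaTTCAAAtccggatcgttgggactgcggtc
CKAP2: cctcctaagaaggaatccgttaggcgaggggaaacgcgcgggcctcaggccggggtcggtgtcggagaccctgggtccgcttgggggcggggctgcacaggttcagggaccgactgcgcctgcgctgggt

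In PLK1, CCNB2 and CKS2 the CHR match begins 29 bases before the start, with CCAAT boxes further upstream. In CDC20 the printed match begins 65 bases before the start and lies between its CCAAT boxes. The full CDC20 window holds a further CHR match, upstream of both boxes. The printed DLGAP5 match begins 109 bases before the start, upstream of both boxes. The full DLGAP5 window also holds CHR matches outside the printed bases, at either end. The one further upstream lies before both boxes, and the other lies past the start, downstream of both boxes. No match to either element lies in the printed CKAP2 window. CKAP2 is not alone in this: of the 44 full windows 5 held neither element, and the others of these, CDC25C, MELK, CENPE and TACC3, fell at 6 days by 1.08, 1.47, 1.16 and 1.65.

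Either CHR form (TTTGAA or TTCGAA, both strands) was found in 32 of the 44 windows, or 72.7%, against 13.5% of the 15843 windows of coding genes of the same length. TTTGAA alone was found in 30 windows, or 68.2% against 12.1%, and TTCGAA in 3, against 1.57% of all windows. CCAAT was found in 32 windows, again 72.7%, against 36.4% of all. Both elements stood in 25 windows, or 56.8% against 5.57%, and 22 windows (50% against 12.5%) held at least 2 CCAAT boxes. The 42 CHR matches lay at a median of 26 bases before the start and the 75 CCAAT matches at a median of 79 bases, with 1 overlap between motifs. The 12 windows without a CHR match were those of CCNB1, CDC25C, MELK, NEK2, CENPE, SPC24, AURKB, NCAPH, CKAP2, TACC3, UBE2S and PTTG1. The median difference at 6 days was -1.41 with a CHR match and -1.24 without, and -1.40 with both elements and -1.41 for the rest. These counts describe letters in a window and say nothing on which factor binds. AURKA, PBK, FOXM1, BUB3, TTK, BIRC5, TPX2 and UBE2C were not matched.

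**Figure D1:**
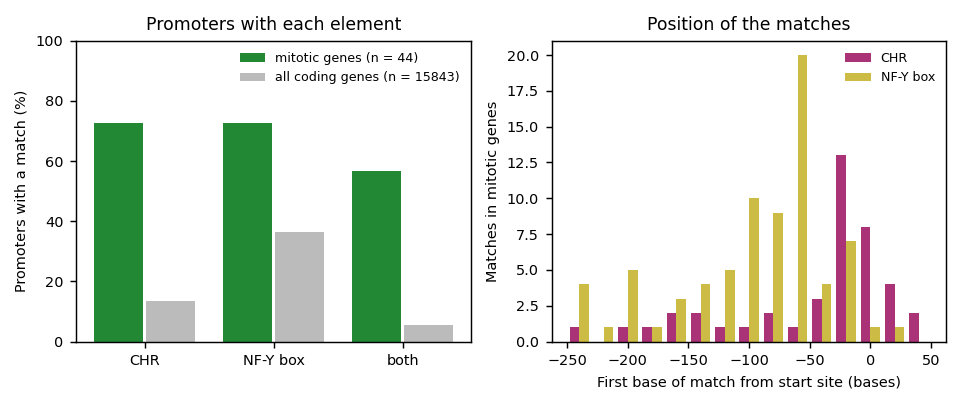
Left, percent of promoter windows (250 bases before to 50 after the start) with a CHR match, a CCAAT box (labelled NF-Y box) or both, for 44 mitotic genes (green) and 15843 coding genes (grey). Right, position of the first base of each match from the start site, in bases; the CHR matches gather near the start, at a median of 26 bases before it, and the CCAAT boxes further upstream, at a median of 79 bases.

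With EED226 the mitotic transcripts did not pass as lower before 72 h, fell in part at 72 h and fell nearly throughout at 6 days. The mean of the 52 genes on the 3 arrays of EED226 at 6 days was 8.37, 8.33 and 8.72. On the other 30 arrays it lay between 9.54 and 9.99, so the 6-day EED226 arrays stood below every other array. At 72 h the EED226 group mean was 9.66, with the lowest array at 9.54, and the DMSO group mean was 9.94, with the lowest array at 9.87. In bulk RNA, fewer cells in mitosis and less of these RNAs per cell cannot be told apart.

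**Figure D2:**
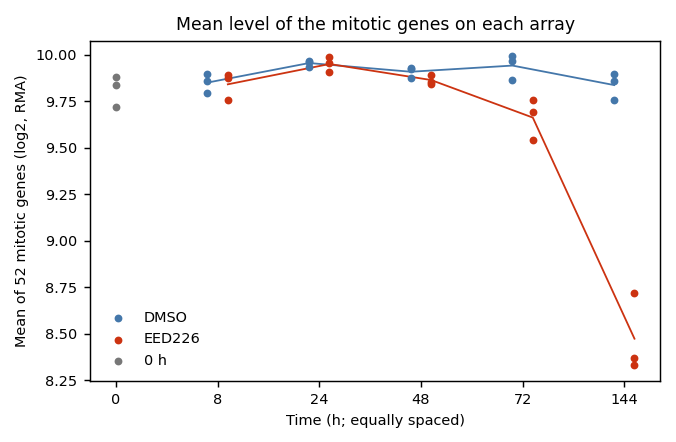
Mean log2 level of the 52 mitotic genes on each array against time in hours (times equally spaced); points are arrays, lines join group means, blue is DMSO, red is EED226 and grey is 0 h. The 3 EED226 arrays at 6 days lie between 8.33 and 8.72, below all other arrays.

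At 8 h no mitotic gene passed the test of EED226 against DMSO, and none of the 19775 genes did (0% in either direction). A gene passed where limma's two-sided test gave an adjusted p (Benjamini-Hochberg over all genes of the comparison) under 0.05. At 24 h again none of the 52 passed, while 0.0354% of all genes passed as lower and 0.834% as higher. At an unadjusted p under 0.05 the count was also 0 at both times. Differences of the 52 ran from -0.10 to 0.08 at 8 h and from -0.15 to 0.13 at 24 h.

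At 48 h, 0 genes passed as lower (2.68% of all genes) and 1, CKAP2, as higher (6.76%). The 52 differences had a median of -0.04, beside -0.03 over all genes, and ran from -0.31 to 0.26. The lowest belonged to NCAPD2, a condensin subunit, at -0.31 ± 0.12 (SE), which did not pass (adjusted p = 0.108). With the replicate number as a block, which pairs the arrays at this time, 2 genes passed, 1 as lower and 1 as higher. In that fit 3.62% of all genes passed as lower and 8.07% as higher.

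At 72 h, 29 of the 52 passed as lower, beside 11.2% of all genes, and 1 as higher, beside 11.7%. The median difference was -0.30, and -0.02 over all genes. Bright genes passed more often: in a fit of only the genes above the median level, where 51 of the 52 lie, 24.8% passed as lower and 20.3% as higher. The falls were modest: none reached 2-fold, as 0.0961% of all genes did. Centring each array on the median of its genes moved the median of all genes from -0.02 to -0.15 and gave 37 mitotic genes lower and 0 higher, beside 22.6% of all genes lower and 8.33% higher. The count passed, 30 in all, came to 19 without DMSO replicate 1 and to 17 without EED226 replicate 3; that replicate held the lowest of the 3 EED226 values for 42 of the 52 genes. Signs of RNA integrity and the mean of the myeloid markers moved with this fall. The difference between 3′ and 5′ control probe sets was 3.26, 3.34 and 3.74 for ACTB with EED226, against 3.05, 3.08 and 3.16 with DMSO, and 0.303, 0.320 and 0.435 for GAPDH, against 0.244, 0.231 and 0.244. EED226 replicate 3 had the highest value of both. With the ACTB difference as a covariate 27 genes passed as lower and 0 as higher, beside 10.6% and 11.2% of all genes. The ACTB values of EED226 and DMSO did not overlap, so this fit cannot set RNA integrity apart from treatment. The mean of 4 myeloid markers was 3.89 to 3.91 with EED226 and 3.55 to 3.65 with DMSO, with 1 of 4 passing, as higher; those of 5 B-cell, 5 T-cell and 4 fibroblast markers overlapped between the groups. The part of the markers was not tested.

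At 6 days, 51 of the 52 passed as lower, beside 27.3% of all genes, and 0 as higher, beside 23.7%. Of these, 43 were lower by at least 2-fold, beside 2.96% of all genes. The median difference was -1.41, and -0.11 over all genes. In the fit of only the genes above the median level, 35.9% passed as lower and 39.2% as higher. All 51 were lower on each EED226 array than on any DMSO array of that time, as were 28% of all genes. The count passed in either direction was 51 also when any 1 array of these groups was left out. With array replicate 3 the fall was least: it held the highest of the 3 EED226 values for 46 of the 52 genes. The difference between 3′ and 5′ control probe sets, a sign of RNA integrity, was larger on the EED226 arrays at 6 days (ACTB 3.50 to 4.14 and GAPDH 0.52 to 0.74) than on most or all others (ACTB 2.79 to 3.74 and GAPDH 0.23 to 0.44). With the ACTB difference as a covariate, 50 genes passed as lower, with a median of -1.45, beside 25.7% of all genes lower. On the DMSO arrays of 6 days the ACTB difference was 2.87 to 3.29, without overlap with EED226. This fit therefore cannot set RNA integrity apart from treatment, and the part of RNA integrity was not tested. The mean of 5 B-cell markers was 10.6 to 10.8 on these arrays and 9.92 to 10.4 on the others, with 3 of 5 passing as higher. The mean of 4 myeloid markers was 3.86 to 4.09, against 3.45 to 3.91, with 1 of 4 passing as higher (LYZ, by 2.28) and 1 as lower. The mean of 5 T-cell markers was 5.61 to 5.82 against 5.85 to 6.14 (1 of 5 passed, as lower), and that of 4 fibroblast markers 6.55 to 6.63 against 6.53 to 7.10 (1 lower, 1 higher). The part of these markers in the result was not tested.

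**Figure D3:**
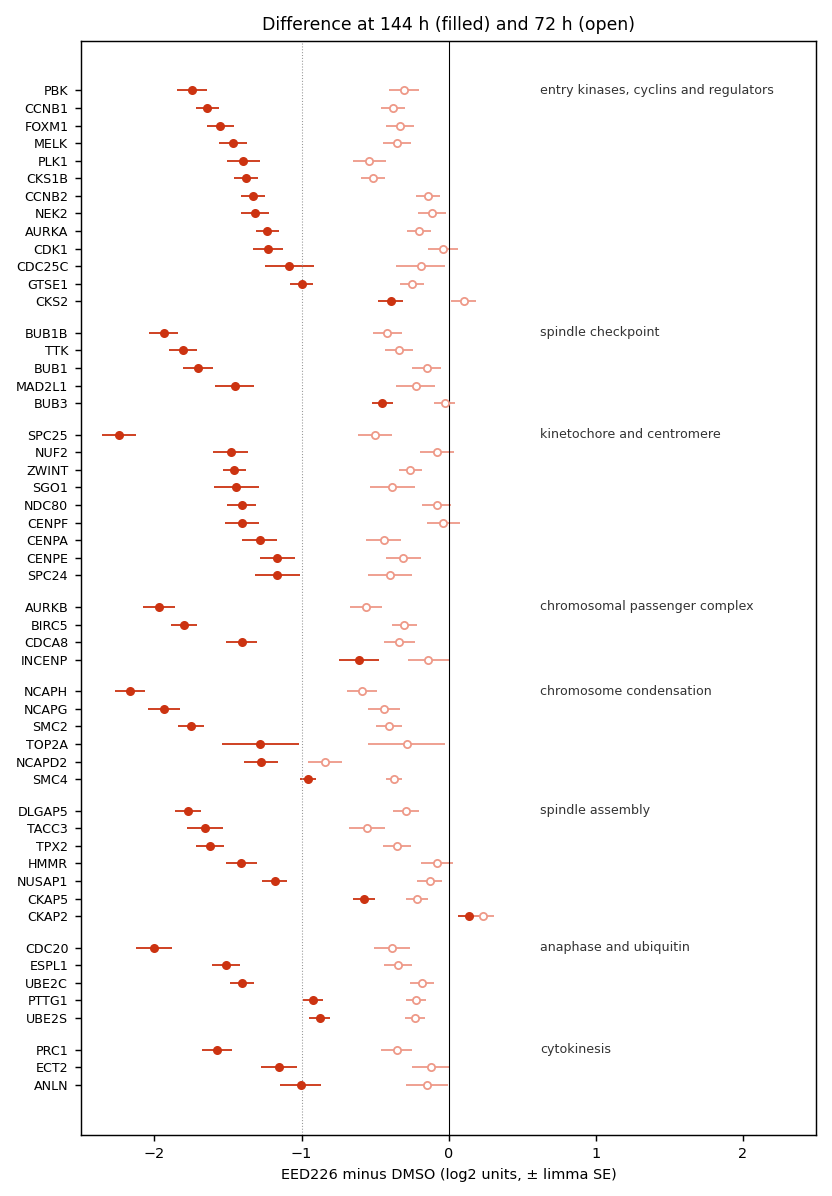
Difference in log2 units between EED226 and DMSO for each of the 52 mitotic genes, grouped by role, at 6 days (filled) and 72 h (open); bars are limma standard errors and the dotted line marks a 2-fold fall. At 6 days every gene but CKAP2 lies left of 0, from SPC25 at -2.24 to CKS2 at -0.39.

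Among the kinases, cyclins and regulators of mitotic entry, 13 of 13 fell at 6 days, with a median of -1.33, and 7 of 13 had passed as lower at 72 h. CDK1, the kinase that drives entry, read 11.43, 11.40 and 11.52 on the DMSO arrays at 6 days and 10.03, 10.05 and 10.59 on the EED226 arrays. The groups were far apart, with the third EED226 array the highest of its group. The difference was -1.23 ± 0.10 (SE, n = 3 per group, adjusted p = 3.43e-11). At 72 h CDK1 stood at 11.51, 11.42 and 11.21 with EED226 and at 11.42, 11.50 and 11.34 with DMSO, so the groups overlapped and the difference of -0.04 ± 0.10 did not pass (adjusted p = 0.868).

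CCNB1, the B-type cyclin that activates CDK1, read 11.21, 11.18 and 11.13 with DMSO at 6 days and 9.40, 9.50 and 9.70 with EED226. All EED226 arrays were well below all DMSO arrays, a fall of 3.12-fold (-1.64 ± 0.08, adjusted p = 1.32e-15). At 72 h the arrays were 10.95, 10.89 and 10.72 against 11.27, 11.28 and 11.14. These groups did not overlap either, and the difference of -0.38 ± 0.08 passed (adjusted p = 7.35e-04). Read from its brightest probe set whose name does not end in _s_at or _x_at, endings that mark probes which may match several transcripts, the fall of CCNB1 at 6 days was smaller (-0.89 ± 0.10, adjusted p = 9.38e-09). CCNB2, its paralogue, which also binds CDK1, fell by 1.33 ± 0.08 at 6 days and had not passed at 72 h (-0.14 ± 0.08, adjusted p = 0.269).

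PBK, a mitotic protein kinase, showed the largest fall of the entry group: 11.16, 11.11 and 11.01 with DMSO and 9.19, 9.14 and 9.71 with EED226 at 6 days (-1.75 ± 0.10, adjusted p = 3.11e-14). FOXM1, the transcription factor that activates many of these genes, read 8.45, 8.53 and 8.30 with DMSO and 6.72, 6.78 and 7.12 with EED226. No EED226 array came near a DMSO array, and the difference was -1.55 ± 0.09 (adjusted p = 7.68e-14). FOXM1 had also passed at 72 h, at -0.33 ± 0.09 (adjusted p = 9.16e-03).

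PLK1, the Polo-like kinase of entry and spindle assembly, fell by 1.40 ± 0.11 at 6 days and by 0.54 ± 0.11 at 72 h (adjusted p = 5.45e-04). AURKA, the Aurora kinase of the spindle poles, fell by 1.23 ± 0.08 at 6 days and did not pass at 72 h (-0.20 ± 0.08, adjusted p = 0.0733). CKS1B, a small CDK-binding subunit, fell by 0.51 ± 0.08 at 72 h and by 1.38 ± 0.08 at 6 days. The kinases MELK and NEK2 fell by 1.47 ± 0.09 and 1.32 ± 0.09 at 6 days, GTSE1 by 1.00 ± 0.08, and the phosphatase CDC25C by 1.08 ± 0.17. Without _s_at and _x_at probe sets the calls of GTSE1 (-0.31 ± 0.15, adjusted p = 0.0879) and CDC25C (-0.18 ± 0.14, adjusted p = 0.301) were lost.

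CKS2, the paralogue of CKS1B, changed least in this group. It read 12.63, 12.62 and 12.79 with DMSO and 12.21, 12.12 and 12.52 with EED226 at 6 days. The groups were separate by a small margin, and the difference was -0.39 ± 0.09 (adjusted p = 3.09e-04). At 72 h it was 0.10 ± 0.09 and did not pass (adjusted p = 0.490).

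Of the spindle checkpoint genes, 5 of 5 fell at 6 days, with a median of -1.70, and 2 of 5 had passed at 72 h. BUB1B, which encodes the BubR1 component of the complex that binds CDC20, read 10.49, 10.51 and 10.47 with DMSO and 8.31, 8.50 and 8.84 with EED226. Every EED226 array was far below the tight DMSO group, a 3.83-fold fall (-1.94 ± 0.10, adjusted p = 3.93e-15). TTK, the kinase that starts checkpoint signalling, read 10.15, 10.06 and 10.08 against 8.25, 8.08 and 8.53 (-1.81 ± 0.10, adjusted p = 5.95e-15).

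These 2 genes were also the checkpoint genes that passed at 72 h, BUB1B at -0.42 ± 0.10 (adjusted p = 2.47e-03) and TTK at -0.34 ± 0.10 (adjusted p = 9.73e-03). The kinase BUB1 fell by 1.70 ± 0.10 at 6 days and MAD2L1, which carries the inhibitory signal, by 1.45 ± 0.13. BUB3, a partner of both BUB1 and BUB1B, fell least: 11.91, 11.85 and 11.85 with DMSO and 11.38, 11.24 and 11.64 with EED226 (-0.45 ± 0.07, adjusted p = 5.32e-06). BUB3 has 6 probe sets, and the second in brightness differed by -1.12 ± 0.06 at 6 days, while those ranked 3 and 4 differed by -0.25 ± 0.07 and -0.32 ± 0.11; each of these passed in the fit over all probe sets.

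All 9 kinetochore and centromere genes fell at 6 days, each by at least 2-fold, with a median of -1.41, and 3 of 9 had passed at 72 h. SPC25, a subunit of the NDC80 complex that grips microtubules, showed the largest fall of the 52. It read 9.66, 9.63 and 9.58 with DMSO and 7.15, 7.19 and 7.81 with EED226. The groups were wide apart even with EED226 replicate 3 highest, a 4.73-fold fall (-2.24 ± 0.12, adjusted p = 3.50e-15).

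The other subunits of that complex fell too. NUF2 read 10.97, 10.90 and 10.90 with DMSO and 9.30, 9.14 and 9.88 with EED226 (-1.48 ± 0.12, adjusted p = 2.09e-11), and NDC80 fell by 1.41 ± 0.10. SPC24 read 7.36, 7.47 and 6.83 with DMSO and 5.88, 5.83 and 6.45 with EED226. Here the lowest DMSO array and the highest EED226 array, both replicate 3, came closest, and the difference was -1.16 ± 0.15 (adjusted p = 2.07e-07). At 72 h SPC25 passed (-0.50 ± 0.12, adjusted p = 1.64e-03), and SPC24 (-0.40 ± 0.15, adjusted p = 0.0573), NUF2 (-0.08 ± 0.12, adjusted p = 0.747) and NDC80 (-0.08 ± 0.10, adjusted p = 0.671) did not.

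CENPA, the centromeric histone variant, fell by 1.28 ± 0.12 at 6 days and by 0.44 ± 0.12 at 72 h, and ZWINT, which links the outer kinetochore to the checkpoint, by 1.46 ± 0.08 and 0.26 ± 0.08. CENPE, a kinetochore motor, fell by 1.16 ± 0.12 at 6 days and CENPF by 1.40 ± 0.11, a call lost without _s_at and _x_at probe sets (-0.57 ± 0.25, adjusted p = 0.0629). SGO1, the shugoshin that shields centromeric cohesin, read 5.70, 5.68 and 5.01 with DMSO and 4.24, 3.85 and 3.96 with EED226 (-1.44 ± 0.15, adjusted p = 5.82e-09). Its DMSO replicate 3 was low, and the groups still did not overlap.

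In the chromosomal passenger complex, which corrects faulty attachments, 4 of 4 fell at 6 days, with a median of -1.60, and 3 of 4 had passed at 72 h. AURKB, its kinase, read 9.11, 9.03 and 8.75 with DMSO and 6.84, 6.84 and 7.30 with EED226. The gap between the groups exceeded the spread within either, a 3.92-fold fall (-1.97 ± 0.11, adjusted p = 1.55e-14). At 72 h AURKB stood at 8.73, 8.70 and 8.45 against 9.32, 9.12 and 9.13, without overlap (-0.56 ± 0.11, adjusted p = 2.70e-04).

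BIRC5, the survivin subunit, read 10.18, 10.16 and 9.99 with DMSO and 8.23, 8.21 and 8.51 with EED226 at 6 days (-1.80 ± 0.09, adjusted p = 1.24e-15). CDCA8, the borealin subunit, fell by 1.41 ± 0.10. INCENP, the scaffold, was the smallest of the complex: 4.53, 4.55 and 4.71 with DMSO and 4.179, 3.523 and 4.257 with EED226 (-0.61 ± 0.14, adjusted p = 4.97e-04). INCENP is the only one of the 52 whose mean lies below the median gene, and its EED226 arrays were spread widely.

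Of the 6 chromosome condensation genes, 6 fell at 6 days, with a median of -1.52, and 5 had passed as lower at 72 h. NCAPH, a condensin I subunit, read 9.13, 9.05 and 8.87 with DMSO and 6.81, 6.67 and 7.08 with EED226. The groups stood far apart, a 4.48-fold fall (-2.16 ± 0.10, adjusted p = 5.50e-16). NCAPG, another condensin I subunit, read 10.86, 10.80 and 10.79 against 8.68, 8.70 and 9.27 (-1.94 ± 0.11, adjusted p = 1.84e-14).

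NCAPD2, the remaining non-SMC condensin I subunit, had gone furthest toward its 6-day fall by 72 h. At 72 h its arrays read 8.11, 7.95 and 7.61 with EED226 and 8.88, 8.75 and 8.56 with DMSO, and at 6 days 7.38, 7.29 and 7.31 against 8.80, 8.60 and 8.40. Neither pair of groups overlapped. Its differences were -0.84 ± 0.12 at 72 h (adjusted p = 3.29e-06), the largest fall of the 52 at that time, and -1.27 ± 0.12 at 6 days (adjusted p = 3.42e-10). NCAPD2 thus had 66.0% of its 6-day difference at 72 h, the only one of the 51 genes over 50%; the median of the 51 was 21.5%.

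The SMC subunits of condensin both fell. SMC2 fell by 1.75 ± 0.09 at 6 days and by 0.40 ± 0.09 at 72 h. SMC4 read 11.60, 11.62 and 11.59 with DMSO and 10.69, 10.58 and 10.68 with EED226, with little spread in either group (-0.95 ± 0.06, adjusted p = 3.27e-14). A second probe set of SMC4 differed by -1.65 ± 0.09. TOP2A, topoisomerase II alpha, had the widest spread of the 52 genes at 72 h (11.39, 10.95 and 10.04 with EED226) and at 6 days read 11.23, 10.82 and 10.42 against 10.03, 9.37 and 9.23 (-1.28 ± 0.26, adjusted p = 1.50e-04).

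Among the 7 spindle assembly genes, 6 fell at 6 days, with a median of -1.41; at 72 h 4 had passed as lower and 1 as higher. DLGAP5, a microtubule-bundling protein, read 10.89, 10.81 and 10.83 with DMSO and 8.94, 8.92 and 9.36 with EED226 (-1.77 ± 0.09, adjusted p = 1.80e-15). TACC3, which stabilises spindle fibres with clathrin and CKAP5, read 8.31, 8.29 and 8.15 against 6.34, 6.61 and 6.85 (-1.65 ± 0.12, adjusted p = 4.93e-12). In both genes the EED226 arrays lay well below the DMSO arrays.

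TPX2, the activator of AURKA, fell by 1.62 ± 0.10 at 6 days, HMMR by 1.41 ± 0.11 and NUSAP1 by 1.18 ± 0.09. CKAP5, a microtubule polymerase, fell by 0.58 ± 0.07, among the smallest falls. TACC3 was the spindle gene with the largest fall at 72 h (-0.55 ± 0.12, adjusted p = 1.09e-03), and HMMR did not pass then (-0.08 ± 0.11, adjusted p = 0.708).

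CKAP2, a microtubule-associated protein, was the exception. Its brightest probe set read 9.99, 9.91 and 9.99 with DMSO at 6 days and 10.08, 10.09 and 10.14 with EED226, slightly higher without overlap, but the difference of 0.14 ± 0.08 did not pass (adjusted p = 0.137). It had passed at 48 h (0.26 ± 0.08, adjusted p = 0.0372) and at 72 h (0.23 ± 0.08, adjusted p = 0.0320). Both calls were narrow: in alternative fits the adjusted p reached 0.195 at 48 h and 0.401 at 72 h, and the calls were lost, for instance, with only the compared arrays in the fit (0.0736 and 0.175). The 48 h call was lost without any 1 array of its groups other than EED226 replicate 1 (adjusted p 0.0725 to 0.162), and the 72 h call without DMSO replicate 3 (0.230) or EED226 replicate 1 (0.254). At 72 h the adjusted p was 0.0506 in the fit over all probe sets.

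The other probe sets of CKAP2 moved in opposite directions. The second in brightness read 6.21, 6.18 and 5.80 with DMSO at 6 days and 5.16, 5.14 and 5.16 with EED226, all lower (-0.91 ± 0.13, adjusted p = 8.11e-07). The third read 3.75, 3.38 and 3.78 with DMSO and 8.18, 7.61 and 7.16 with EED226, all far higher (4.01 ± 0.20, adjusted p = 1.60e-15). The same probe set was already higher at 72 h, at 5.33, 5.15 and 4.73 against 3.450, 3.395 and 3.393 (1.66 ± 0.20, adjusted p = 4.26e-07). These p-values were adjusted over all probe sets with 1 symbol. Which transcripts each probe set reads was not examined.

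**Figure D4:**
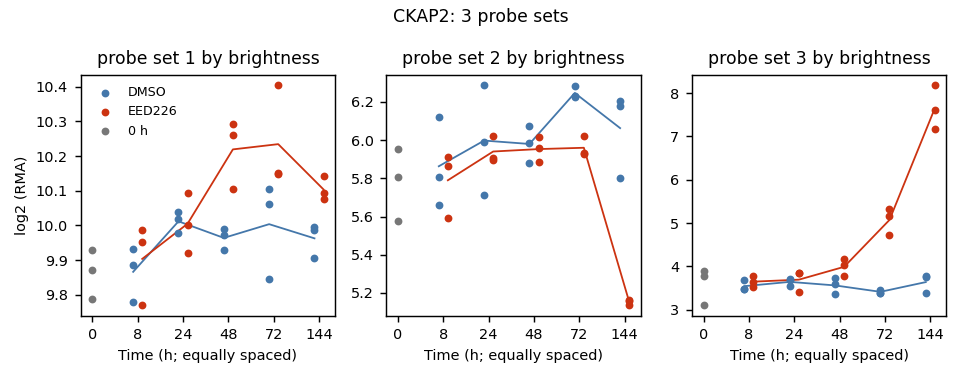
Log2 level of the 3 CKAP2 probe sets on each array against time in hours (times equally spaced), ordered by brightness; points are arrays, lines join group means, blue is DMSO, red is EED226 and grey is 0 h, and each panel has its own axis. At 6 days the first is 0.14 higher with EED226, the second 0.91 lower and the third 4.01 higher.

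The 5 genes of anaphase and its ubiquitin machinery all fell at 6 days, with a median of -1.40, and 4 had passed at 72 h. CDC20, the activator of the anaphase-promoting complex, read 11.44, 11.37 and 11.12 with DMSO and 9.09, 9.15 and 9.67 with EED226. No EED226 array came within the DMSO range, a 4.01-fold fall (-2.003 ± 0.12, adjusted p = 1.09e-13). At 72 h it stood at 11.07, 11.13 and 10.89 against 11.58, 11.50 and 11.17, just separate (-0.39 ± 0.12, adjusted p = 0.0216).

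ESPL1, separase, the protease that cleaves cohesin, read 9.17, 9.07 and 8.96 with DMSO and 7.43, 7.37 and 7.88 with EED226 at 6 days (-1.51 ± 0.10, adjusted p = 2.17e-13). PTTG1, securin, its inhibitor, fell by 0.92 ± 0.07. Both ubiquitin-conjugating enzymes of the complex fell: UBE2C by 1.40 ± 0.08, and UBE2S, which extends the chains, from 11.67, 11.66 and 11.52 to 10.69, 10.68 and 10.85 (-0.88 ± 0.07, adjusted p = 2.18e-11).

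All 3 cytokinesis genes fell at 6 days, with a median of -1.15, and 1 had passed at 72 h. PRC1, which bundles the central spindle, read 9.54, 9.47 and 9.32 with DMSO and 7.82, 7.68 and 8.11 with EED226 (-1.58 ± 0.10, adjusted p = 4.26e-13). ECT2, the exchange factor that activates RhoA at the cleavage furrow, read 8.79, 8.73 and 8.78 against 7.45, 7.44 and 7.94 (-1.15 ± 0.13, adjusted p = 9.51e-09), a call lost without _s_at and _x_at probe sets (-0.21 ± 0.11, adjusted p = 0.129). ANLN, anillin of the contractile ring, read 8.66, 8.53 and 8.44 against 7.46, 7.23 and 7.92 (-1.01 ± 0.14, adjusted p = 7.70e-07). The groups of each gene were separate, and PRC1 was the one that had passed at 72 h (-0.35 ± 0.10, adjusted p = 0.0119).

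**Figure D5:**
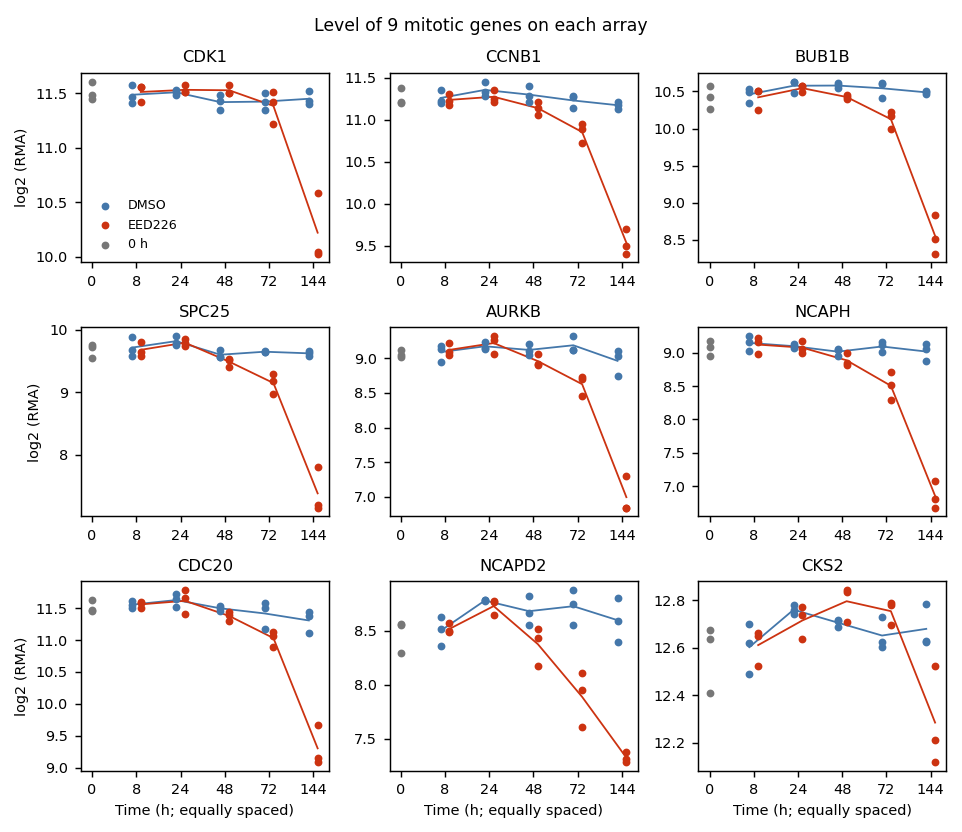
Log2 level of CDK1, CCNB1, BUB1B, SPC25, AURKB, NCAPH, CDC20, NCAPD2 and CKS2 on each array against time in hours (times equally spaced); points are arrays, lines join group means, blue is DMSO, red is EED226 and grey is 0 h, and each panel has its own axis. CDK1 overlaps DMSO at 72 h and is lower by 1.23 at 6 days, while NCAPD2 is already lower by 0.84 at 72 h.

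The step between 72 h and 6 days was tested as the difference between the EED226 effects at those times. It passed as a further fall for 49 of the 52 genes, beside 10.7% of all genes, and 34 of them changed by at least 2-fold, beside 1.07% of all genes. The median change was -1.18, and -0.05 over all genes. SPC25 changed most (-1.74 ± 0.16, adjusted p = 1.24e-08), then CDC20 (-1.62 ± 0.17, adjusted p = 9.60e-08) and NCAPH (-1.57 ± 0.14, adjusted p = 8.56e-09). INCENP (-0.47 ± 0.19, adjusted p = 0.0772), NCAPD2 (-0.43 ± 0.16, adjusted p = 0.0552) and CKAP2 (-0.09 ± 0.11, adjusted p = 0.604) did not pass. From 24 to 48 h and from 48 to 72 h the change passed for 0 genes (0.0354% and 0.0405% of all genes passed as lower). At an unadjusted p under 0.05 there were 2 and 16 genes, without the share of all genes at that threshold.

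DMSO arrays were compared with the arrays at 0 h. At 8, 24, 48 and 72 h and at 6 days, 0 of the 52 passed in limma's test against 0 h, while 0%, 0.177%, 0.89%, 3.02% and 1.72% of all genes passed in either direction. At an unadjusted p under 0.05 the counts were 0, 12, 10, 17 and 2. The share of all genes at that looser threshold is not given here, so these counts are not set against the whole array. The small differences were mostly above 0: 49 of the 52 were above 0 at 24 h, with a median of 0.16, and the DMSO and 0 h arrays did not overlap for 25 genes that were higher, beside 7.79% of all genes. At 72 h 44 were above 0, with a median of 0.13, and at 6 days 32, with a median of 0.06. These comparisons share the 0 h arrays, and the share of all genes above 0 is not given here.

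At 72 h the highest differences of DMSO over 0 h were those of CDC25C, from 6.85, 6.27 and 6.71 to 7.34, 7.15 and 7.12 (0.59 ± 0.17, adjusted p = 0.0506), CENPE (0.36 ± 0.12, adjusted p = 0.111) and PRC1 (0.33 ± 0.10, adjusted p = 0.0826). The arrays of these 3 genes did not overlap, yet none passed. The lowest differences were those of SGO1 (-0.21 ± 0.15), CDC20 (-0.10 ± 0.12) and CDK1 (-0.09 ± 0.10). At 6 days SGO1 (-0.40 ± 0.15, adjusted p = 0.197), CDC20 (-0.21 ± 0.12) and SPC24 (-0.19 ± 0.15) were lowest and CENPE (0.21 ± 0.12), HMMR (0.20 ± 0.11) and BUB1 (0.18 ± 0.10) highest, without passing. Between 72 h and 6 days in DMSO 0 genes passed (0.00506% of all genes did). An unadjusted p under 0.05 was seen for 8, and the share of all genes at that threshold is not given here.

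The EED226 arrays were also set against 0 h. At 72 h 16 of the 52 were lower than at 0 h (13.5% of all genes) and 1 higher (14.4%). At 6 days 51 were lower (26.2%) and 1 higher (22.1%), with a median of -1.36. The higher one was CKAP2 (0.24 ± 0.08, adjusted p = 0.0121); with each array centred on the median of its genes, 51 passed as lower and 0 as higher. The EED226 arrays of CKS2 at 6 days (12.21, 12.12 and 12.52) overlapped those at 0 h (12.64, 12.41 and 12.67), although the difference of -0.29 ± 0.09 passed (adjusted p = 6.12e-03).

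Of the 52 genes, 26 have more than 1 probe set, which gave 49 further probe sets. At 6 days 47 of these differed below 0. In the fit over all probe sets 37 passed as lower, beside 22.8% of all probe sets, and 1 as higher, the third of CKAP2, beside 21.8%. The brightest probe set did not show the largest fall throughout: 20 of the 49 fell more, including 13 of the 18 whose mean exceeded 8. For CDK1 the other 3 probe sets differed by -1.62 ± 0.10, -1.73 ± 0.10 and -1.54 ± 0.21, against -1.23 for the brightest. For 26 of the 52 genes the name of the brightest probe set ends in _s_at or _x_at. These were avoided only where a gene had another kind of probe set. That changed the reading of 14 genes, and the rest kept the probe set they had. In this fit 47 of the 52 passed as lower at 6 days, beside 25.1% of all genes. CDC25C, GTSE1, CENPF and ECT2, all among the 14 read anew, were lost, and CKAP2 did not pass in either fit.

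For other genes of mitosis the counts at 6 days are to be read beside the 27.3% of all genes that passed as lower, the 23.7% that passed as higher and the median of -0.11 over all genes. Of 16 further regulators of entry, 14 passed as lower and 1 as higher, with a median of -0.73. MYBL2, the B-Myb subunit of the activating MuvB complex, fell by 2.34 ± 0.12 and the phosphatase CDC25A fell by 2.19 ± 0.12. The MuvB subunits LIN37 (0.74 ± 0.15, passed) and LIN52 (0.20 ± 0.09, adjusted p = 0.0521) lay above 0. Of 32 further kinetochore and checkpoint genes, 27 passed as lower and 0 as higher, with a median of -0.92. The centromere proteins CENPM and CENPN fell by 2.36 ± 0.12 and 2.06 ± 0.09, and MAD1L1 was the gene above 0 (0.22 ± 0.24, adjusted p = 0.468).

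Of 26 further condensin and spindle genes, 22 passed as lower and 1 as higher, with a median of -1.06. ASPM, of the spindle poles, fell by 1.92 ± 0.10, PLK4, of centriole duplication, by 1.57 ± 0.08, and NUMA1, which anchors spindle poles, rose by 0.50 ± 0.09. Of 15 subunits and regulators of the anaphase-promoting complex, 8 passed as lower and 3 as higher, with a median of -0.22; the share higher is below that of all genes. Its inhibitor FBXO5 fell by 1.32 ± 0.10 and the subunit ANAPC16 rose by 0.74 ± 0.08.

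Of 14 cohesin genes, 11 passed as lower and 2 as higher, with a median of -0.41. The acetyltransferase ESCO2 and sororin, CDCA5, which both act on newly replicated chromatids, fell by 2.18 ± 0.18 and 1.99 ± 0.10. The loader subunit MAU2 rose by 1.03 ± 0.07 and STAG2 by 0.16 ± 0.06. Of 13 genes of cytokinesis and mitotic exit, 9 passed as lower and 2 as higher, with a median of -0.38. CEP55, of abscission, fell by 1.91 ± 0.10 and CDCA2 by 1.86 ± 0.11, while CDC14B rose by 0.74 ± 0.19 and PPP1CC, a catalytic subunit of protein phosphatase 1, by 0.15 ± 0.05.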

How the data were processed

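RNA of 33 samples was measured on Affymetrix arrays. The deposited table holds log2 signals. RMA is the only method that the submitters' processing notes list for these values. The platform's annotation table names the genes. Of 54675 probe sets, 41091 carry 1 symbol, 1801 several, 11721 none and 62 are controls; those with 1 symbol give 19775 genes. Each gene was read from its brightest probe set, with no filter on dim genes. Limma 3.58.1 (R 4.3.3; lmFit, contrasts.fit, eBayes) fitted 1 mean per group over all arrays; tests were two-sided, with Benjamini-Hochberg adjustment over all genes of a comparison and a threshold of 0.05. The number of arrays limits the precision, and p-values measure the spread between these samples. The fit was tested on simulated data with independent noise on each array, so pairing of arrays was not covered. Probe sets were fitted separately, adjusted over all 41091.

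The members and gene lists were chosen with earlier results of these data known. All members are described; values on every array were given for the largest and smallest differences at 6 days in each role and for CDK1, CCNB1, FOXM1 and CDC20, and for further members chosen after their values were seen. From each other list the most changed genes were named. Those above 0 were all named only in lists where few lay above 0, which leaves out the anaphase-promoting complex.

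Same-numbered EED226 and DMSO arrays deviated together at 8 h (r = 0.199 to 0.318), 24 h (0.11 to 0.358) and 48 h (0.151 to 0.169), which is taken as pairing from the data; the labels give only the numbers. Alternatives were other scalings, other probe sets, a filter on dim genes, fewer arrays, array weights, other moderation, an ACTB covariate, the replicate block and leaving out each array. Promoter windows are RefSeq's.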

Additional observations from a re-analysis of the deposited data

Results flagged for a closer look

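The effect of EED226 on the mitotic genes differed between 72 h and 6 days. In limma's test of the difference between the EED226 minus DMSO differences at those times, 49 of the 52 genes passed, all toward a larger fall at 6 days, beside 10.7% of all genes. The change was -1.74 for SPC25, -1.62 for CDC20 and -1.57 for NCAPH. Each of these 3 genes had passed as lower at 72 h already.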

How the results depend on the processing

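The counts here take genes that passed as lower and as higher together. The count of 51 at 6 days ranged from 47 to 52 over the alternatives, and from 51 to 51 without each replicate. A count of 52 does not by itself mean that every gene fell. At 72 h, where 30 passed, it ranged from 24 to 37 with all arrays and from 17 to 32 without each replicate. The 1 gene at 48 h became 0 with array medians centred, with the mean of probe sets and with only the compared arrays, 2 on repeated quantile normalisation and with array weights, and 0 to 1 without each replicate. The 0 genes of DMSO at 72 h against 0 h became 1 on repeated quantile normalisation, 3 among genes above the median level, 2 with array weights, 3 with trended robust moderation and 0 to 1 without each replicate. For the change from 48 to 72 h, 0 became 2 with array weights and 1 with trended robust moderation. For EED226 at 72 h against 0 h, 17 became 29 with gene medians centred and 12 to 20 without each replicate; without each replicate the range at 6 days against 0 h was 50 to 52, and for the change from 72 h to 6 days 48 to 51. The remaining comparisons gave 0 to 0 without each replicate. With the replicate number as a block the counts were 2 at 48 h, 32 at 72 h and 51 at 6 days. Of all genes, 3.62% passed as lower and 8.07% as higher at 48 h in that fit. The shares were 12.3% and 12.6% at 72 h, and 28.8% and 24.3% at 6 days. The block counts were 51 for the change from 72 h to 6 days, 1 for that from 48 to 72 h and 2 for DMSO at 72 h against 0 h. Same-numbered EED226 and DMSO arrays correlated at -0.00879 to 0.233 at 72 h and 0.0464 to 0.126 at 6 days. The highest value at 72 h, that of replicate 3, exceeds those at 48 h, so pairing at these later times is not settled. No called value changed direction. Causes were not tested. Fits centred on gene medians, and those without DMSO replicate 3 of 6 days at earlier times, were chosen after seeing the data.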
